A study of Talinum fruticosum with 36 samples.

Results

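Leaf transcripts of 10 genes for superoxide dismutases and ascorbate-glutathione enzymes were followed through drought and recovery in Talinum triangulare (Talinum fruticosum in the sample labels), a herb that performs C3 photosynthesis when watered and can adopt crassulacean acid metabolism (CAM), in which carbon dioxide is taken up at night. The genes were chosen by name, but with earlier results of these data known. Their counts and medians beside all loci are therefore descriptions and no test of the set. The genes are given as the Arabidopsis loci to which the reads were matched: the superoxide dismutases CSD1 (AT1G08830), CSD2 (AT2G28190), CSD3 (AT5G18100), MSD1 (AT3G10920) and FSD1 (AT4G25100), the ascorbate peroxidases APX1 (AT1G07890), SAPX (AT4G08390) and TAPX (AT1G77490), and the glutathione reductases GR1 (AT3G24170) and GR2 (AT3G54660). They are 10 of 21869 loci in the table of counts, and all 10 passed the filter on low counts that left 14052 loci for testing.

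Superoxide forms in leaves when electrons of photosynthesis or respiration pass to oxygen. Superoxide dismutases turn it into hydrogen peroxide, ascorbate peroxidases reduce the peroxide to water with ascorbate, and the oxidised ascorbate is restored partly with glutathione, which glutathione reductases keep in its reduced form. The set is repeated in several parts of the cell. In Arabidopsis, CSD1 is the cytosolic, CSD2 the chloroplast and CSD3 the peroxisomal copper/zinc enzyme, MSD1 is the manganese enzyme of mitochondria, and FSD1 is an iron enzyme of plastids and cytosol. APX1 is the main cytosolic ascorbate peroxidase of Arabidopsis, SAPX the stromal and TAPX the thylakoid-bound one, while GR1 works in cytosol and peroxisomes and GR2 in plastids and mitochondria.

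Watering was stopped after 28 days of growth with ample water. Mature leaves were harvested from plants re-watered for 2 days once 12 days of drought had passed, and from plants on days 0, 4, 9 and 12 of drought. Each stage had a midnight and a midday harvest, in the middle of the dark and of the light phase (6 h in). The labels assign days 9 and 12 to the CAM mode and the other stages to C3. This gave 10 groups of 3 biological replicates, 30 single-end libraries in all, and no group of plants kept watered to the later days, so drought, plant age and sampling day cannot be told apart. The p-values below measure the spread between these replicates.

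The libraries held 4266915 to 8756533 counts, and a count of 0 allows a level of up to 0.343 to 0.703 CPM (3 counts, counting error only). Levels are read counts put on a common library size (CPM) with TMM factors, and changes are log2 fold changes ± standard error from edgeR's quasi-likelihood test, called at a Benjamini-Hochberg adjusted p under 0.05 over all loci tested. The leaf markers RBCS1A, LHCB3 and RCA were abundant at every stage at midday, with a summed level of 35000 to 134000 CPM. At midnight the sum was 39600 to 76000 CPM, but LHCB3 was low there, with group means of 4.72 to 91.2 CPM. Of the epidermal markers, PDF1 was at 0 in every group and ATML1 had no locus among those counted. With their own groups, day 0 midnight replicate 3 and re-watered midday replicate 3 correlated least (mean r 0.971 and 0.97 across loci), and results that rest on them are given with and without them. In bulk leaf RNA, fewer cells of a type and less RNA per cell cannot be told apart. Talinum reads were assigned to their best Arabidopsis match, so close family members can share reads: SAPX with TAPX, APX1 with APX2, and FSD1 with FSD3 are uncertain in this way.

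Per length of coding sequence, CSD2 and APX1 were the most abundant of the 10 at midday on day 0; the order differed between groups. The authors' deposited table of assembled contigs gives mean scaled reads (RPM) per group, and the contigs with the highest mean for each gene were compared per kb of coding sequence. At midday on day 0 the authors' deposited table gives 1127 RPM per kb for the APX1 contig, 1123 for CSD2, 603 for CSD1, 328 for FSD1, 172 for TAPX, 154 for MSD1, 147 for GR2, 131 for SAPX, 60.9 for GR1 and 40.3 for CSD3. At midnight on day 12 the authors' deposited table gives 955 RPM per kb for CSD2, 258 for APX1, 134 for GR2, 115 for FSD1, 86.4 for CSD1, 71.5 for CSD3, 69.1 for MSD1, 21.0 for GR1, 17.7 for SAPX and 14.1 for TAPX. CSD1, the third in order at midday on day 0, was thus the fifth there, and CSD2 was the first. The authors' deposited table lists the SAPX contig and the TAPX contigs under the same contig stem, Tt31974. In spinach the stromal and thylakoid enzymes come from a single gene by alternative splicing.

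At midnight, the genes for the cytosolic and mitochondrial dismutases CSD1 and MSD1, for all 3 ascorbate peroxidases and for both glutathione reductases were lower in drought, while the chloroplast dismutase CSD2 and FSD1 did not pass the test. On day 9, 8 of the 10 genes were called, 1 higher and 7 lower, against 48.6% of all loci tested (23.2% higher and 25.4% lower). On day 12, 7 were called and all 7 were lower, against 57.6% of all loci (27.8% higher and 29.8% lower). The median log2 change of the 10 genes was -1.09 on day 9 and -1.53 on day 12, beside 0.01 over all loci on each day. Summed vascular markers (6 of 6 tested) were also lower at midnight, at 269 to 309 CPM on day 9 and 315 to 316 on day 12, against 572 to 730 on day 0. Summed guard cell markers (5 of 6 tested) were 31.5 to 35.0 CPM on day 9 and 31.7 to 39.7 on day 12, against 36.5 to 57.5 on day 0. Summed leaf markers were 56600 to 76000 CPM on day 9 and 51800 to 72300 on day 12, against 39600 to 64600 on day 0. Within that sum RCA rose (mean 35000 and 37300 CPM, against 16700 CPM on day 0). LHCB3 fell by 3.37 and by 3.65 (8.8 and 7.34 CPM, against 91.2 CPM on day 0). RBCS1A was not called (-0.29 and -0.38). The vascular sum too held genes that went opposite ways: IRX1, IRX3 and IRX5 fell by 1.75 to 2.08, and SWEET11 rose by 0.81 and 1.19. The part of these lists in the results was not tested.

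**Figure D1:**
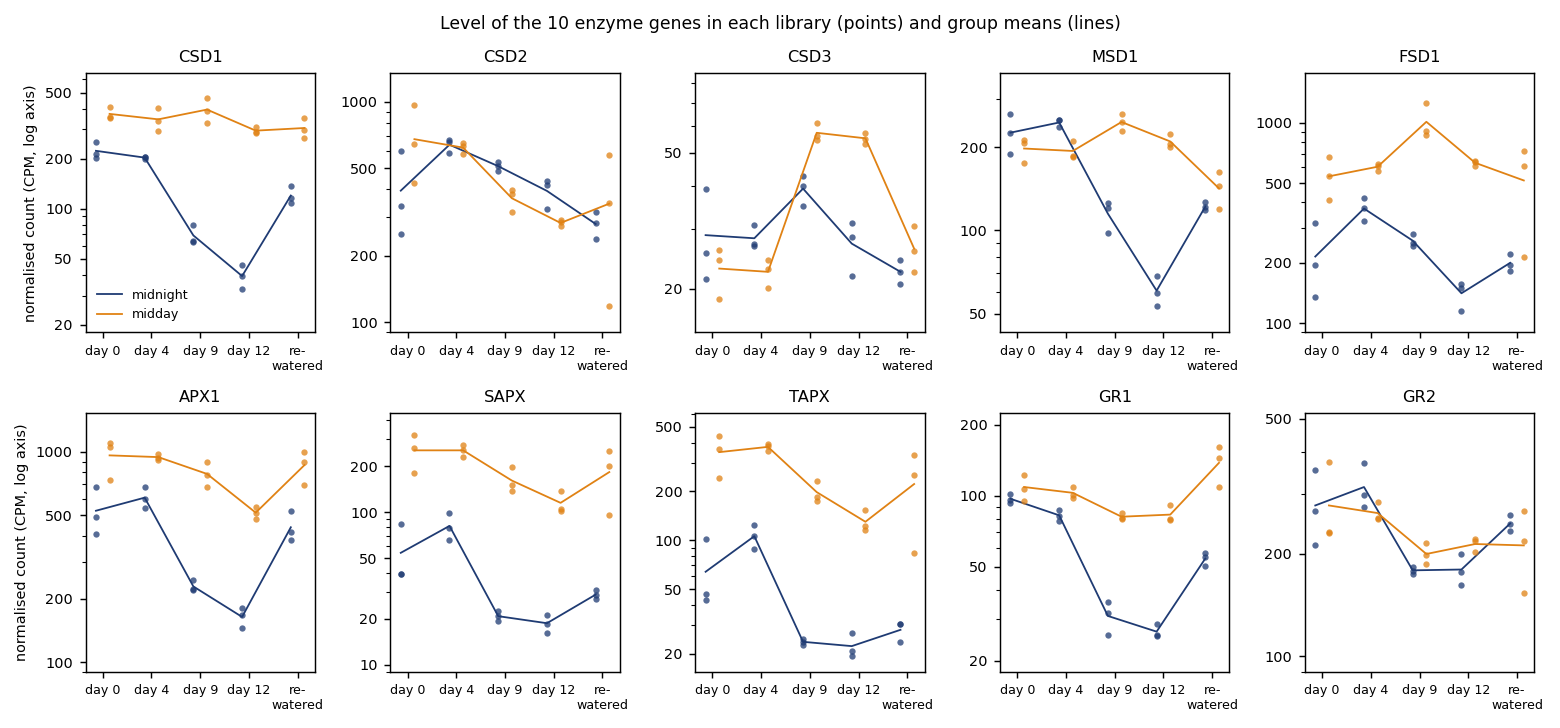
Normalised counts (CPM, log axis) of the 10 genes in every library at 5 stages; points are libraries, 3 per group, and lines join group means, with midnight in blue and midday in orange. CSD1 at midnight lies at 32.7 to 45.8 CPM on day 12, against 203 to 253 CPM on day 0, while at midday it lies at 284 to 311 CPM on day 12 and at 350 to 409 CPM on day 0.

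CSD1, the cytosolic copper/zinc dismutase, had 80.3, 62.9 and 63.7 CPM at midnight on day 9 and 45.8, 39.3 and 32.7 CPM on day 12, against 213, 253 and 203 CPM on day 0. The 3 groups did not overlap, and every drought library was below every day 0 library. CSD1 fell by 1.69 ± 0.16 on the log2 scale on day 9 (edgeR adjusted p = 3.33e-09) and by 2.51 ± 0.17 on day 12 (edgeR adjusted p = 2.3e-12), a level 5.69-fold lower. MSD1, the mitochondrial manganese dismutase, had 126, 98.1 and 121 CPM on day 9 and 68.6, 59.5 and 53.4 CPM on day 12, against 189, 264 and 225 CPM on day 0. All 6 drought libraries lay below those of day 0. MSD1 fell by 0.98 ± 0.14 (edgeR adjusted p = 2.24e-06) and by 1.90 ± 0.14 (edgeR adjusted p = 2.19e-11), and the calls of CSD1 and MSD1 held without any single library.

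The other dismutases were not called lower at midnight on either day. CSD2, of the chloroplast, had 487, 532 and 510 CPM on day 9 and 419, 438 and 325 CPM on day 12, against 251, 336 and 598 CPM on day 0. The day 0 libraries spanned those of both drought days, replicate 3 being the highest. The log2 change was 0.37 ± 0.34 on day 9 (edgeR adjusted p = 0.389) and 0.00 ± 0.34 on day 12 (edgeR adjusted p = 0.995). FSD1 had 252, 243 and 280 CPM on day 9 and 149, 157 and 115 CPM on day 12, against 135, 195 and 316 CPM on day 0, again with replicate 3 the highest. Its log2 change was 0.26 ± 0.29 on day 9 (edgeR adjusted p = 0.476) and -0.62 ± 0.29 on day 12 (edgeR adjusted p = 0.0735). The lower day 12 level of FSD1 was called in 3 of the 30 fits that left out a library (edgeR adjusted p = 0.0101 to 0.0495). These were the fits without re-watered midday replicate 3 (-0.62), day 0 midnight replicate 1 (-0.94) or day 9 midnight replicate 2 (-0.69). Without both libraries that correlated least the change was -0.23 (edgeR adjusted p = 0.323). Without day 0 midnight replicate 3 and re-watered midday replicate 3, the day 9 change was called for CSD2 (0.80, edgeR adjusted p = 0.00712) and for FSD1 (0.65, edgeR adjusted p = 0.00931). CSD3, of peroxisomes, had 34.9, 40.1 and 42.9 CPM on day 9, against 25.5, 39.1 and 21.4 CPM on day 0, with overlap. It was called on day 9 (0.46 ± 0.17, edgeR adjusted p = 0.027), but not without day 0 midnight replicate 1 (0.31), day 0 midnight replicate 3 (0.29), day 9 midnight replicate 2 (0.37) or day 9 midnight replicate 3 (0.39), and without day 0 midnight replicate 2 the change was 0.74. The 3 day 12 libraries of CSD3 (31.1, 28.3 and 21.8 CPM) lay within the range of day 0.

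The peroxidases that consume hydrogen peroxide fell with CSD1 and MSD1. APX1, of the cytosol, had 245, 222 and 220 CPM at midnight on day 9 and 146, 167 and 180 CPM on day 12, against 408, 681 and 488 CPM on day 0. Every drought library was below day 0, and APX1 fell by 1.20 ± 0.19 (edgeR adjusted p = 8.37e-06) on day 9 and by 1.68 ± 0.19 (edgeR adjusted p = 3.28e-08) on day 12. SAPX, of the stroma, had 22.4, 19.2 and 20.9 CPM on day 9 and 21.2, 16.1 and 18.6 CPM on day 12, against 39.2, 39.6 and 83.6 CPM on day 0. TAPX, of the thylakoids, had 23.6, 24.8 and 22.8 CPM on day 9 and 26.7, 20.8 and 19.4 CPM on day 12, against 42.8, 47.0 and 102 CPM on day 0. In both genes day 0 replicate 3 was far above replicates 1 and 2, and every drought library was below all 3. SAPX fell by 1.38 ± 0.29 (edgeR adjusted p = 0.000378) and by 1.54 ± 0.29 (edgeR adjusted p = 8.3e-05). TAPX fell by 1.43 ± 0.34 (edgeR adjusted p = 0.0013) and by 1.52 ± 0.34 (edgeR adjusted p = 0.000543), and without day 0 midnight replicate 3 by 0.92 (edgeR adjusted p = 0.0259) and by 1.01 (edgeR adjusted p = 0.0121). The authors' deposited table of contigs gives log2 fold changes at midnight on day 9 of -1.22 for the SAPX contig and of -1.45 and -1.32 for the 2 main TAPX contigs.

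GR1, which keeps glutathione reduced in cytosol and peroxisomes, had 35.6, 25.7 and 31.8 CPM at midnight on day 9 and 25.5, 25.7 and 28.6 CPM on day 12, against 96.5, 102 and 93.4 CPM on day 0. The drought libraries were all far below day 0, where the replicates were close together. GR1 fell by 1.64 ± 0.13 (edgeR adjusted p = 2.16e-10) and by 1.87 ± 0.14 (edgeR adjusted p = 1.16e-11). GR2, of plastids and mitochondria, had 175, 183 and 178 CPM on day 9 and 177, 200 and 162 CPM on day 12, against 268, 212 and 354 CPM on day 0, without overlap. GR2 fell by 0.64 ± 0.19 (edgeR adjusted p = 0.00728) and by 0.63 ± 0.19 (edgeR adjusted p = 0.00632), and neither call held without day 0 midnight replicate 3 (-0.42, edgeR adjusted p = 0.0805, and -0.42, edgeR adjusted p = 0.0746).

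**Figure D2:**
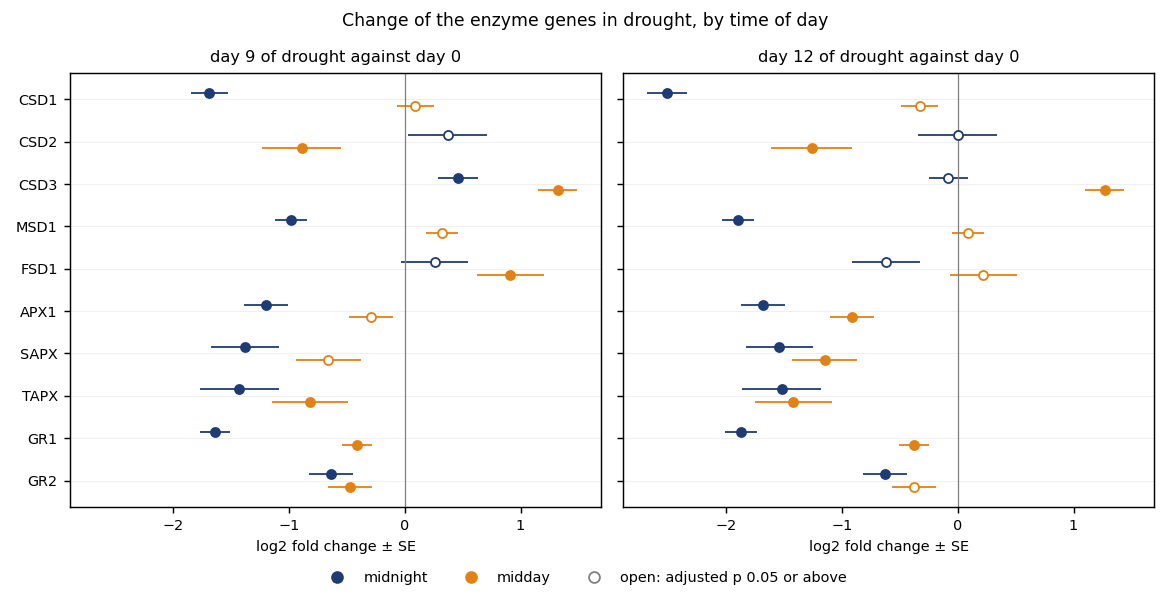
Log2 fold change ± SE of the 10 genes on day 9 (left) and day 12 (right) of drought against day 0, with midnight (blue) above midday (orange) for each gene; open symbols did not pass an adjusted p under 0.05. CSD1 and MSD1 lie at -1.69 and -0.98 at midnight on day 9, against 0.09 and 0.32 at midday, and CSD3 lies at 0.46 at midnight and 1.32 at midday.

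At midday the peroxisomal dismutase CSD3 rose on both drought days and FSD1 rose on day 9. CSD2, TAPX and GR1 fell on both days, GR2 fell on day 9, APX1 and SAPX fell on day 12, and CSD1 and MSD1 did not pass the test. On day 9, 6 of the 10 genes were called, 2 higher and 4 lower, against 44.5% of all loci tested (23.4% higher and 21.0% lower). On day 12, 6 were called, 1 higher and 5 lower, against 55.0% of all loci (29.3% higher and 25.7% lower), so the number called was near the background on both days. The count on day 9 was 3 without day 0 midday replicate 1, day 9 midday replicate 2 or day 9 midday replicate 3. Summed leaf markers were 43100 to 54600 CPM on day 9 and 39800 to 42300 CPM on day 12, against 75900 to 134000 CPM on day 0. Summed guard cell markers were 22.1 to 31.9 and 23.0 to 29.1 CPM, against 42.4 to 56.2 CPM on day 0. Within that sum MYB60, HT1, FAMA and ALMT12 were called lower on both days (by 1.92, 1.15, 1.82 and 2.76 on day 12). SLAC1 was not called on day 9 (-0.12) and rose by 0.75 on day 12 (edgeR adjusted p = 0.0107). Summed vascular markers were 539 to 578 and 466 to 524 CPM, against 586 to 676 CPM on day 0. All 3 leaf markers were called lower on both days. In the vascular list IRX1, IRX3 and IRX5 fell on both days (IRX3 by 1.17 and by 1.61). SWEET11 rose by 2.23 and by 2.15. Their part in these results was not tested.

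CSD3 had 54.4, 56.1 and 61.2 CPM at midday on day 9 and 53.2, 55.1 and 57.4 CPM on day 12, against 25.9, 18.6 and 24.3 CPM on day 0. The drought libraries were close together and all above day 0. CSD3 rose by 1.32 ± 0.17 on day 9 (edgeR adjusted p = 7.85e-07) and by 1.27 ± 0.17 on day 12 (edgeR adjusted p = 7.69e-07), and both calls held without any single library. FSD1 had 1260, 872 and 911 CPM on day 9 and 610, 635 and 647 CPM on day 12, against 671, 410 and 541 CPM on day 0. All day 9 libraries were above day 0, and those of day 12 lay within the range of day 0. FSD1 rose by 0.91 ± 0.29 on day 9 (edgeR adjusted p = 0.0133), a call lost without day 0 midday replicate 2 (0.74, edgeR adjusted p = 0.0683) or day 9 midday replicate 1 (0.72, edgeR adjusted p = 0.0731). On day 12 its log2 change was 0.22 ± 0.29 (edgeR adjusted p = 0.535).

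CSD2 went the other way at midday, with 317, 381 and 397 CPM on day 9 and 273, 284 and 290 CPM on day 12, against 961, 426 and 640 CPM on day 0. Drought libraries were all below day 0, whose replicate 1 was far above its group. CSD2 fell by 0.89 ± 0.34 on day 9 (edgeR adjusted p = 0.0378) and by 1.26 ± 0.35 on day 12 (edgeR adjusted p = 0.00342). The day 9 call was lost without day 0 midday replicate 1 (-0.54), day 0 midday replicate 3 (-0.93), day 9 midday replicate 1 (-0.80), day 9 midday replicate 2 (-0.92) or day 9 midday replicate 3 (-0.95), and by limma-trend (adjusted p = 0.0634). CSD1 had 467, 389 and 329 CPM on day 9 and 290, 311 and 284 CPM on day 12, against 350, 356 and 409 CPM on day 0. The groups of day 9 and day 0 overlapped (0.09 ± 0.16, edgeR adjusted p = 0.679). All day 12 libraries were below day 0, with a log2 change of -0.33 ± 0.16 (edgeR adjusted p = 0.0727). That decrease was called with RLE or upper quartile scaling (edgeR adjusted p = 0.0222 and 0.013), by DESeq2 (adjusted p = 0.0112) and without day 0 midnight replicate 1 or day 9 midnight replicate 2 (-0.42 each). Neither of these libraries belongs to the midday groups compared, so these calls too depend on how the libraries were scaled. MSD1 had 265, 246 and 230 CPM on day 9 and 201, 205 and 224 CPM on day 12, against 213, 175 and 207 CPM on day 0. All day 9 libraries were above day 0, and its log2 change was 0.32 ± 0.14 on day 9 (edgeR adjusted p = 0.0614, and 0.048 without both libraries that correlated least) and 0.09 ± 0.14 on day 12 (edgeR adjusted p = 0.624).

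All 3 peroxidases fell at midday by day 12, and on day 9 the edgeR test called TAPX but not SAPX or APX1. APX1 had 900, 778 and 680 CPM on day 9 and 514, 479 and 549 CPM on day 12, against 1100, 732 and 1060 CPM on day 0. It overlapped with day 0 on day 9 (-0.29 ± 0.19, edgeR adjusted p = 0.206) and fell by 0.91 ± 0.19 on day 12 (edgeR adjusted p = 0.00019). SAPX had 197, 137 and 150 CPM on day 9 and 102, 137 and 105 CPM on day 12, against 321, 180 and 262 CPM on day 0. On day 9 it lay at the threshold (-0.66 ± 0.28, edgeR adjusted p = 0.0544). It was called with RLE or upper quartile scaling (edgeR adjusted p = 0.0383 and 0.0254), by DESeq2 (adjusted p = 0.0314) and at a minimum of 5 CPM in 3 libraries (edgeR adjusted p = 0.0469). It was also called in 8 of the 30 fits that left out a library and without both libraries that correlated least (edgeR adjusted p = 0.00364). SAPX fell by 1.15 ± 0.28 on day 12 (edgeR adjusted p = 0.00111). The authors' deposited table of contigs gives smaller midday changes for the SAPX contig: -0.386 on day 9 (DESeq2 q = 0.167) and -0.61 on day 12 (DESeq2 q = 0.0155). TAPX had 233, 175 and 185 CPM on day 9 and 115, 153 and 123 CPM on day 12, against 437, 243 and 366 CPM on day 0. TAPX was below day 0 in all 6 drought libraries and fell by 0.82 ± 0.33 on day 9 (edgeR adjusted p = 0.0433) and by 1.42 ± 0.33 on day 12 (edgeR adjusted p = 0.000806). The day 9 call of TAPX was lost without day 0 midday replicate 1 (-0.62), day 0 midday replicate 3 (-0.78), day 9 midday replicate 2 (-0.74) or day 9 midday replicate 3 (-0.77), by limma-trend (adjusted p = 0.0619) and with no filter on low counts (edgeR adjusted p = 0.0562). For the 2 main TAPX contigs the authors' deposited table gives midday changes of -1.01 and -0.748 on day 9 and of -1.69 and -0.94 on day 12.

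The glutathione reductases had small negative changes at midday. GR1 had 79.7, 84.7 and 80.3 CPM on day 9 and 79.6, 91.4 and 78.8 CPM on day 12, against 95.1, 123 and 107 CPM on day 0. It fell by 0.41 ± 0.13 on day 9 (edgeR adjusted p = 0.0117) and by 0.38 ± 0.13 on day 12 (edgeR adjusted p = 0.0146). Without day 0 midday replicate 2 the changes were -0.31 (edgeR adjusted p = 0.0764) and -0.28 (edgeR adjusted p = 0.0961), and the day 12 call was also lost without day 12 midday replicate 1 (-0.35) or replicate 3 (-0.34). GR2 had 199, 215 and 187 CPM on day 9 and 203, 221 and 218 CPM on day 12, against 373, 230 and 232 CPM on day 0. It fell by 0.47 ± 0.19 on day 9 (edgeR adjusted p = 0.0446), and on day 12 its log2 change was -0.38 ± 0.19 (edgeR adjusted p = 0.0928). The day 12 decrease was called with RLE or upper quartile scaling (edgeR adjusted p = 0.0375 and 0.0241), by DESeq2 (adjusted p = 0.03), in 3 of the 30 fits that left out a library and without both libraries that correlated least (edgeR adjusted p = 0.0399). The day 9 call rested on the threshold: it was lost in 14 of the 30 fits that left out a library (edgeR adjusted p = 0.0504 to 0.405), with a change of -0.20 without day 0 midday replicate 1, by limma-trend (adjusted p = 0.0594) and with no filter (edgeR adjusted p = 0.0547).

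On day 4, the stage the labels still assign to C3, 0 of the 10 genes were called at either time of day by edgeR, DESeq2 or limma-trend. By edgeR, 0 of them had an unadjusted p under 0.05 at midday, where 0 of 14052 loci were called (0.0%; 1052 had an unadjusted p under 0.05), and 3 had one at midnight (FSD1, SAPX and TAPX), where 26 loci were called (0.185%; 0.0498% higher and 0.135% lower). The largest midday change among the 10 was that of FSD1, at 0.16 ± 0.29 (edgeR adjusted p = 0.934). At midnight, FSD1 had 324, 375 and 419 CPM on day 4, against 135, 195 and 316 CPM on day 0, with no overlap (0.79 ± 0.29, edgeR adjusted p = 0.214). That comparison turned on day 0 midnight replicate 3: without it 3 genes were called, and without it and re-watered midday replicate 3 there were 4, namely CSD2 (1.12), FSD1 (1.18), SAPX (1.04) and TAPX (1.25), all higher on day 4. In the fit without both libraries 1131 loci were called over the whole table, against 26 in all libraries. The rise in calls was thus not confined to the 10 genes.

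The midnight decrease of CSD1, MSD1, APX1 and GR1 was set against their midday change by testing the midnight response to drought minus the midday response. That difference was called for 5 of the 10 genes on day 9, all 5 more negative at midnight, against 24.3% of all loci (10% more positive and 14.2% more negative). On day 12 it was called for 6, 1 more positive and 5 more negative at midnight, against 33.8% of all loci (15.2% and 18.6%). For CSD1 the log2 difference was -1.78 ± 0.22 on day 9 (edgeR adjusted p = 2.72e-06) and -2.17 ± 0.23 on day 12 (edgeR adjusted p = 5.5e-08). For MSD1 it was -1.30 ± 0.20 (edgeR adjusted p = 3.12e-05) and -1.99 ± 0.20 (edgeR adjusted p = 3.11e-08). For GR1 it was -1.23 ± 0.19 (edgeR adjusted p = 3.11e-05) and -1.48 ± 0.19 (edgeR adjusted p = 9e-07). In these 3 genes the midnight change was thus the more negative, and the calls held without any single library.

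For CSD3 the midnight response was smaller than the midday response, by 0.86 ± 0.24 on day 9 (log2 difference -0.86, edgeR adjusted p = 0.0102) and by 1.35 ± 0.24 on day 12 (log2 difference -1.35, edgeR adjusted p = 0.000105). For APX1 the difference was -0.91 ± 0.26 on day 9 (edgeR adjusted p = 0.0127) and -0.77 ± 0.26 on day 12 (edgeR adjusted p = 0.0237). The APX1 call on day 9 was lost without day 0 midnight replicate 2 (-0.67, edgeR adjusted p = 0.0529). On day 12 it was lost without day 0 midday replicate 2 (-0.61), day 12 midday replicate 3 (-0.72), day 0 midnight replicate 2 (-0.54) or day 12 midnight replicate 1 (-0.69), and with upper quartile scaling (edgeR adjusted p = 0.057). By edgeR in all libraries, CSD2 alone of the 10 had a positive called difference, 1.26 ± 0.49 on day 12 (edgeR adjusted p = 0.0471). The call was lost in 24 of the 30 fits that left out a library (edgeR adjusted p = 0.0517 to 0.165), by limma-trend (adjusted p = 0.0541) and with no filter (edgeR adjusted p = 0.0587). On day 9 the CSD2 difference had the same size, 1.26 ± 0.48 (edgeR adjusted p = 0.0608). It was called with upper quartile scaling (edgeR adjusted p = 0.041), by DESeq2 (adjusted p = 0.0357), in 4 of the 30 fits that left out a library, and without both libraries that correlated least (1.69, edgeR adjusted p = 0.000276). For SAPX, TAPX, FSD1 and GR2 the difference did not pass the test on either day, with log2 values between -0.84 and -0.11. That of FSD1 on day 12 (-0.84, edgeR adjusted p = 0.118) was called without re-watered midday replicate 3 or day 0 midnight replicate 1.

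**Figure D3:**
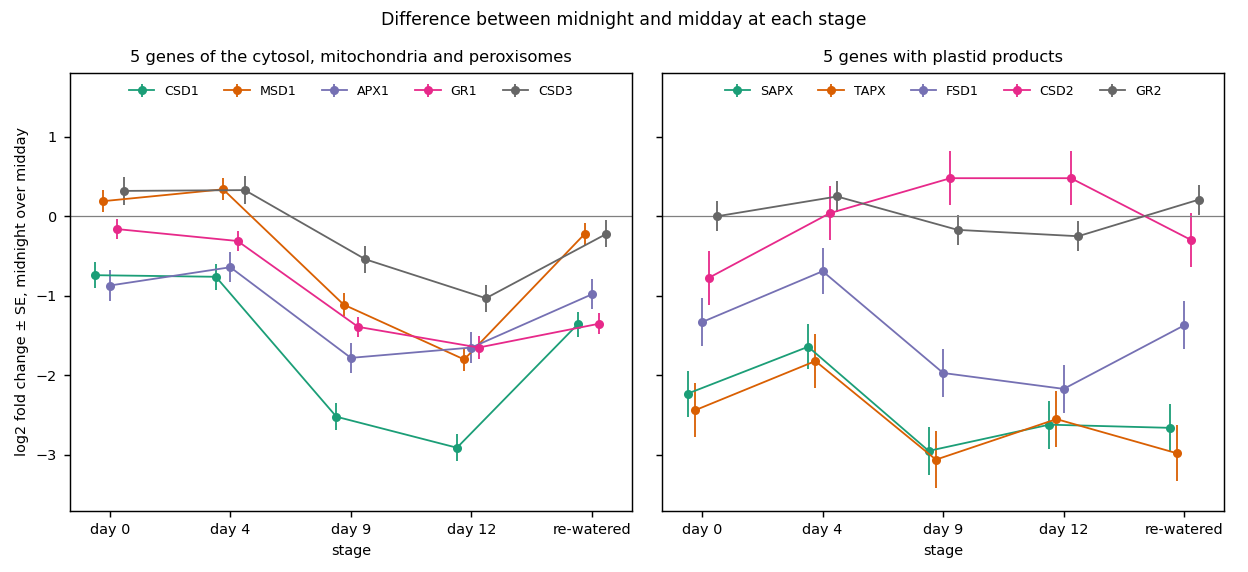
Log2 fold change ± SE of midnight over midday at each stage (days 0, 4, 9 and 12 and after re-watering) for 5 genes whose Arabidopsis products lie outside plastids (left) and 5 whose products lie in plastids, wholly or partly (right). CSD1 lies at -0.74 on day 0 and -2.91 on day 12, MSD1 at 0.19 and -1.80, and CSD2 between -0.77 and 0.48.

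Within each stage, SAPX, TAPX, CSD1 and APX1 were lower at midnight than at midday in all 5 stages. Of the 10 genes, 5 were called on day 0 (0 higher and 5 lower, against 22.9% higher and 21.0% lower, 43.9% of all loci), 5 on day 4 (1 higher and 4 lower, against 22.4% and 19.5%, 41.9% in all), 8 on day 9 (all lower, against 24.0% higher and 25.6% lower, 49.5% in all), 8 on day 12 (all lower, against 27.2% and 27.5%, 54.7% in all) and 6 after re-watering (all lower, against 23.6% and 23.5%, 47.1% in all). SAPX had 39.2, 39.6 and 83.6 CPM at midnight on day 0, against 321, 180 and 262 CPM at midday, a log2 change of -2.23 ± 0.29 (edgeR adjusted p = 7.96e-07). TAPX had a midnight change of -2.44 ± 0.34 on day 0 and of -3.06 ± 0.36 on day 9 (edgeR adjusted p = 3.06e-06 and 1.07e-07). By locus, the plastid peroxidases thus had a large day-night difference before drought, and it was called at each later stage too. By contig it was less even. For day 0 the authors' deposited table gives 66.7 RPM at midday and 31.0 RPM at midnight for the SAPX contig. For the 2 main TAPX contigs the authors' deposited table gives 217 and 44.3 RPM, and 69.3 and 30.3 RPM. These means carry no TMM factors.

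CSD1 and MSD1 differed from them in how the day-night difference moved. CSD1 had a midnight change of -0.74 ± 0.16 on day 0, -0.76 ± 0.16 on day 4, -2.52 ± 0.17 on day 9, -2.91 ± 0.17 on day 12 and -1.36 ± 0.16 after re-watering. MSD1 had 0.19 ± 0.14 on day 0, 0.34 ± 0.14 on day 4, -1.11 ± 0.14 on day 9, -1.80 ± 0.14 on day 12 and -0.22 ± 0.14 after re-watering. MSD1 was called in both drought stages of CAM (edgeR adjusted p = 2.31e-07 and 3.64e-11) and on day 4, where the call was lost in 18 of the 30 fits that left out a library (edgeR adjusted p = 0.0502 to 0.131), with RLE or upper quartile scaling (edgeR adjusted p = 0.0764 and 0.121), by DESeq2 (adjusted p = 0.0521) and with no filter (edgeR adjusted p = 0.0682). GR1 had a midnight change of -0.16 ± 0.13 on day 0, -0.31 ± 0.13 on day 4, -1.39 ± 0.13 on day 9, -1.65 ± 0.14 on day 12 and -1.35 ± 0.13 after re-watering, and the midnight and midday levels differed at the last 3 of these stages (edgeR adjusted p = 2.4e-09, 7.26e-11 and 3.78e-09). On day 4 the GR1 groups did not overlap (edgeR adjusted p = 0.0568). The lower midnight level was called with RLE or upper quartile scaling (edgeR adjusted p = 0.0308 and 0.0172), by DESeq2 (adjusted p = 0.021), at a minimum of 5 CPM (edgeR adjusted p = 0.048) and in 6 of the 30 fits that left out a library. GR2 and CSD2 were called at no stage by edgeR in all libraries. CSD2 on day 0 (-0.77, edgeR adjusted p = 0.0695) was called lower at midnight with upper quartile scaling (edgeR adjusted p = 0.0476), by DESeq2 (adjusted p = 0.0457) and in 4 of the 30 fits that left out a library, among them that without day 0 midnight replicate 3 (-1.20, edgeR adjusted p = 0.00991). After re-watering CSD2 was called lower without re-watered midday replicate 3 (-0.72, edgeR adjusted p = 0.0351). On days 9 and 12 CSD2 was instead higher at midnight, without overlap (0.48 ± 0.34 each, edgeR adjusted p = 0.253 and 0.244). The day 12 difference was called without both libraries that correlated least (edgeR adjusted p = 0.0494). FSD1 was lower at midnight on day 0 (-1.33 ± 0.30, edgeR adjusted p = 0.000709), day 9 (-1.97 ± 0.30), day 12 (-2.17 ± 0.30) and after re-watering (-1.37 ± 0.30). On day 4 its groups did not overlap either (-0.69 ± 0.29, edgeR adjusted p = 0.0574). That difference was called with RLE or upper quartile scaling (edgeR adjusted p = 0.0482 and 0.0337), by DESeq2 (adjusted p = 0.0364) and in 5 of the 30 fits that left out a library.

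Between the drought stages, CSD1, MSD1 and CSD3 were lower at midnight on day 12 than on day 9, as was APX1 at midday. At midnight, 3 of the 10 genes were called, all lower on day 12, against 8.16% of all loci (3.57% higher and 4.58% lower). CSD1 fell by 0.81 ± 0.16 (edgeR adjusted p = 0.00285) and MSD1 by 0.93 ± 0.14 (edgeR adjusted p = 0.000186). CSD3 fell by 0.54 ± 0.17 (edgeR adjusted p = 0.0458), a call lost in 18 of the 30 fits that left out a library (edgeR adjusted p = 0.0504 to 0.27), by limma-trend (adjusted p = 0.0511) and with no filter (edgeR adjusted p = 0.0515). FSD1 had 149, 157 and 115 CPM on day 12, against 252, 243 and 280 CPM on day 9, without overlap, and its log2 change was -0.88 ± 0.29 (edgeR adjusted p = 0.0614). It was called by DESeq2 (adjusted p = 0.0362), in 4 of the 30 fits that left out a library and without both libraries that correlated least (edgeR adjusted p = 0.0023). At midday, APX1 alone was called by edgeR in all libraries, against 8.4% of all loci (2.85% higher and 5.56% lower): it fell by 0.61 ± 0.19 (edgeR adjusted p = 0.0379). That call was lost without day 9 midday replicate 1 (-0.50), day 9 midday replicate 2 (-0.62), day 12 midday replicate 1 (-0.61), day 12 midday replicate 2 (-0.56) or day 12 midday replicate 3 (-0.66). Without re-watered midday replicate 3 the number called at midday was 2, FSD1 (-0.68, edgeR adjusted p = 0.0421) being the other, and DESeq2 also called CSD1 (-0.47, adjusted p = 0.0318).

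After re-watering, the night levels of CSD1, MSD1, APX1 and GR1 were above those of day 12, and those of CSD1, MSD1 and GR1 were still below day 0. Against day 12 at midnight, 4 of the 10 genes were called, all higher, against 42.9% of all loci (22.3% higher and 20.6% lower). CSD1 had 136, 108 and 116 CPM in re-watered plants, against 45.8, 39.3 and 32.7 CPM on day 12. It rose by 1.61 ± 0.16 (edgeR adjusted p = 8.71e-09). GR1 had 50.6, 55.0 and 57.4 CPM in re-watered plants, against 25.5, 25.7 and 28.6 CPM on day 12, and rose by 1.03 ± 0.13 (edgeR adjusted p = 6.68e-07). MSD1 rose by 1.02 ± 0.14 (edgeR adjusted p = 1.6e-06) and APX1 by 1.42 ± 0.19 (edgeR adjusted p = 9.2e-07). Every re-watered library of these genes was above those of day 12, and the calls held without any single library. The log2 change of GR2 was 0.45 ± 0.19 (edgeR adjusted p = 0.0552), called with upper quartile scaling (edgeR adjusted p = 0.0308), at a minimum of 5 CPM (edgeR adjusted p = 0.0469) and in 8 of the 30 fits that left out a library. SAPX (0.63 ± 0.29, edgeR adjusted p = 0.088) and FSD1 (0.51 ± 0.29, edgeR adjusted p = 0.166) were also higher without overlap. CSD2 was lower without overlap (-0.50 ± 0.34, edgeR adjusted p = 0.252). Without both libraries that correlated least, GR2, SAPX and FSD1 were called higher (edgeR adjusted p = 0.0189, 0.00963 and 0.0197).

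Against day 0 at midnight, 5 genes were called in re-watered plants, all lower, against 19.6% of all loci (8.28% higher and 11.3% lower). CSD1 was 136, 108 and 116 CPM, against 213, 253 and 203 CPM on day 0, and fell by 0.90 ± 0.16 (edgeR adjusted p = 0.000389). GR1 was 50.6, 55.0 and 57.4 CPM, against 96.5, 102 and 93.4 CPM on day 0, and fell by 0.84 ± 0.13 (edgeR adjusted p = 0.000116). MSD1 fell by 0.88 ± 0.14 (edgeR adjusted p = 0.00012). APX1 was 521, 379 and 415 CPM, against 408, 681 and 488 CPM on day 0, with overlap (-0.26 ± 0.19, edgeR adjusted p = 0.335). SAPX fell by 0.91 ± 0.29 (edgeR adjusted p = 0.0269) and TAPX by 1.19 ± 0.34 (edgeR adjusted p = 0.0167). Without day 0 midnight replicate 3 these were -0.45 (edgeR adjusted p = 0.263) and -0.67 (edgeR adjusted p = 0.155). The SAPX call was also lost without re-watered midnight replicate 1 (-0.96), replicate 2 (-0.86) or replicate 3 (-0.90), and the TAPX call without re-watered midnight replicate 2 (-1.08). The number called was 3 without re-watered midnight replicate 2.

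**Figure D4:**
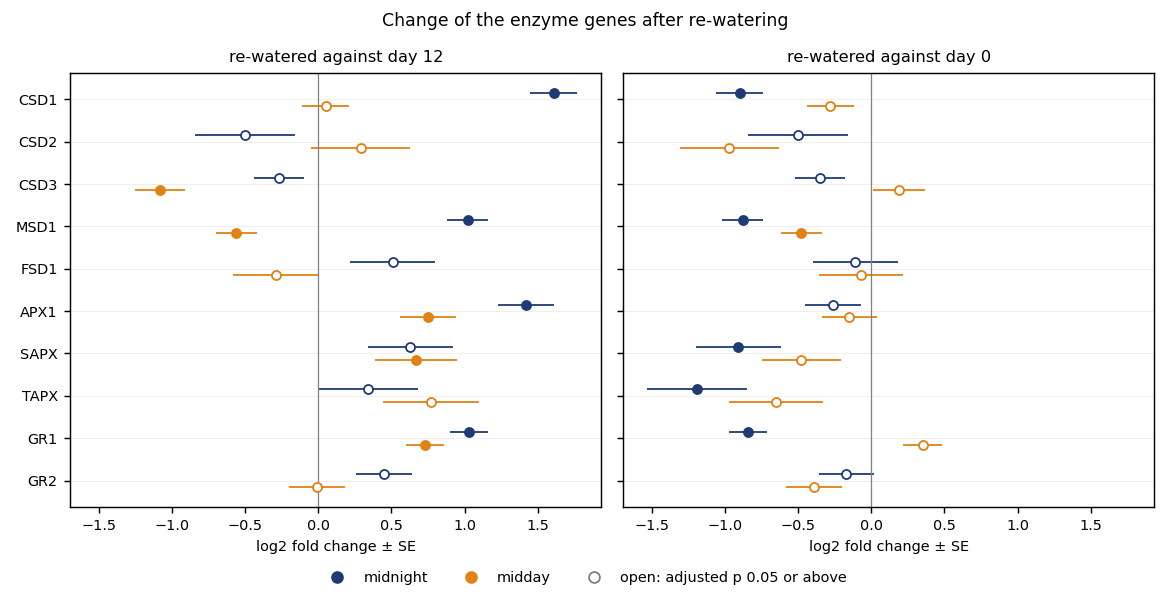
Log2 fold change ± SE of the 10 genes in re-watered plants against day 12 (left) and against day 0 (right), with midnight (blue) above midday (orange) for each gene; open symbols did not pass an adjusted p under 0.05. Against day 12, CSD1 lies at 1.61 at midnight and 0.05 at midday, and CSD3 lies at -0.27 at midnight and -1.08 at midday.

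At midday, 5 of the 10 genes were called in re-watered plants against day 12, 3 higher and 2 lower, against 47.7% of all loci (22.9% higher and 24.8% lower). CSD3 had 25.7, 30.5 and 22.4 CPM in re-watered plants, against 53.2, 55.1 and 57.4 CPM on day 12. It fell by 1.08 ± 0.17 (edgeR adjusted p = 9.22e-06), to levels that overlapped with the 25.9, 18.6 and 24.3 CPM of day 0. MSD1 fell by 0.56 ± 0.14 (edgeR adjusted p = 0.00151), APX1 rose by 0.75 ± 0.19 (edgeR adjusted p = 0.00153) and GR1 rose by 0.73 ± 0.13 (edgeR adjusted p = 4.23e-05). SAPX rose by 0.67 ± 0.28 (edgeR adjusted p = 0.0486), a call lost in 20 of the 30 fits that left out a library (edgeR adjusted p = 0.05 to 0.3), with a change of 0.38 without re-watered midday replicate 1, by limma-trend (adjusted p = 0.0932) and with no filter (edgeR adjusted p = 0.0583). TAPX lay at the threshold (0.77 ± 0.33, edgeR adjusted p = 0.0559). It was called with RLE or upper quartile scaling (edgeR adjusted p = 0.0402 and 0.032), by DESeq2 (adjusted p = 0.0269), at a minimum of 5 CPM (edgeR adjusted p = 0.0478) and in 4 of the 30 fits that left out a library (edgeR adjusted p = 0.000758 to 0.04). TAPX was also called higher without both libraries that correlated least (edgeR adjusted p = 2.4e-05).

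Re-watered midday replicate 3 was the lowest of its group in every gene followed except GR1. Outside plastids, CSD1 had 299, 351 and 268 CPM in that group and APX1 had 1000, 898 and 698 CPM. CSD3 had 25.7, 30.5 and 22.4 CPM. Relative to the level, the gap was wider in the plastid genes given next. CSD2 had 571, 347 and 118 CPM in re-watered plants at midday, FSD1 722, 611 and 214 CPM, and TAPX 333, 251 and 83.6 CPM, with replicate 3 the lowest in each. In the same library GR1 was the highest of its group (109, 144 and 161 CPM), and the light-harvesting gene LHCB3 was 3120 CPM, against 9600 and 8400 CPM in replicates 1 and 2. Without that library CSD2 was called higher than on day 12 (0.70, edgeR adjusted p = 0.0404). Against day 0 at midday, 1 gene was called in re-watered plants, against 6.85% of all loci (4.09% higher and 2.75% lower): MSD1 had 145, 163 and 120 CPM, against 213, 175 and 207 CPM on day 0, and fell by 0.48 ± 0.14 (edgeR adjusted p = 0.0371). The call was lost without day 0 midday replicate 1 (-0.42), day 0 midday replicate 3 (-0.45) or re-watered midday replicate 3 (-0.37). The number called was 3 without day 0 midday replicate 2 and 4 without re-watered midday replicate 1. CSD2 was called lower in both of these fits, by DESeq2 (adjusted p = 0.0437) and by limma-trend (-1.16, adjusted p = 0.0496), against -0.97 in the edgeR fit of all libraries (adjusted p = 0.0844).

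Over the 10 groups, TAPX and SAPX varied the most by locus and GR2 the least. The highest and lowest group means, given as descriptions, differed 16.9-fold for TAPX, 13.6-fold for SAPX, 10.1-fold for CSD1, 7.21-fold for FSD1, 5.87-fold for APX1, 5.2-fold for GR1, 4.09-fold for MSD1, 2.56-fold for CSD3, 2.42-fold for CSD2 and 1.76-fold for GR2. By contig and without TMM factors, the authors' deposited table gives narrower relative ranges for SAPX (9.0 to 69.0 RPM) and CSD1 (39.7 to 296 RPM). SAPX and TAPX may share reads, so their places in this order are uncertain. The lowest mean was that of day 12 midnight for CSD1, MSD1, FSD1, APX1, SAPX, TAPX and GR1. It was that of re-watered midnight for CSD2, of day 4 midday for CSD3 and of day 9 midnight for GR2. When the 10 groups were put in order of their means, the libraries of neighbouring groups overlapped in 5 of 9 pairs for CSD1 and SAPX, in 6 for FSD1 and GR1, in 7 for MSD1, APX1 and TAPX and in 8 for CSD2, CSD3 and GR2. In CSD1 all 5 midday groups came before all 5 midnight groups, and the lowest of the midday groups (day 12, 284 to 311 CPM) lay wholly above the highest of the midnight groups (day 0, 203 to 253 CPM). SAPX showed the same split. In TAPX the midday groups also came first by their means, but the lowest of them (day 12) overlapped with the highest midnight group (day 4).

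Likeness of 2 genes was described by the root mean square difference of their centred log2 group means over the 10 groups, where a smaller value means a more similar course. Among the 10 genes the closest pair was SAPX and TAPX (0.16), which may share reads, followed by APX1 and GR1 (0.27) and by CSD1 and APX1 (0.37). The farthest pair was CSD3 and TAPX (1.55). CSD1 and CSD2, both copper/zinc dismutases, were 1.14 apart. Among 8802 loci outside the 10 with a mean of at least 10 CPM, APX2, the close paralogue of APX1, was the most alike to APX1 (0.097), and FSD3, another plastid iron dismutase, to FSD1 (0.176). CSD1 was closest to the urate oxidase gene AT2G26230 (0.227), CSD2 to nucleoside diphosphate kinase 2 (AT5G63310, 0.186) and the photosystem II assembly factor HCF136 (AT5G23120, 0.201), MSD1 to FK506-binding protein 12 (AT5G64350, 0.138), GR1 to a quinone reductase family gene (AT4G27270, 0.153) and TAPX to photosystem II subunit X (AT2G06520, 0.34). Reads of APX1 and APX2 and of FSD1 and FSD3 may have been split between them in the mapping.

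A list of 43 related genes (other dismutases, peroxidases, enzymes of ascorbate and glutathione recycling and synthesis, catalases, peroxiredoxins and copper homeostasis) had 34 loci in the table, of which 33 were tested. The other 9 are not analysed here. This list too was drawn up with earlier results of these data known, so its counts beside all loci are descriptions. At midnight, 4 rose and 8 fell on day 9, against 48.6% of all loci called (23.2% higher and 25.4% lower), and 2 rose and 19 fell on day 12, against 57.6% (27.8% higher and 29.8% lower). Their median log2 change was -0.08 on day 9 and -0.67 on day 12, beside 0.01 over all loci on each day. At midday, 8 rose and 9 fell on day 9, against 44.5% of all loci called (23.4% higher and 21.0% lower), and 6 rose and 16 fell on day 12, against 55.0% (29.3% higher and 25.7% lower). The median was -0.16 and -0.28 there, beside 0.05 and 0.08 over all loci. The genes named next are the up to 4 called list genes with the smallest adjusted p in each comparison. At midnight, MDAR4, a monodehydroascorbate reductase of peroxisomal membranes, rose by 1.23 ± 0.18 on day 9 and by 1.37 ± 0.19 on day 12 (edgeR adjusted p = 4.28e-06 and 6e-07), to 629 and 690 CPM, against 267 CPM on day 0. VTC4, of ascorbate synthesis, fell by 1.43 ± 0.17 and by 1.49 ± 0.17, and APX2 fell by 1.31 ± 0.20 and by 1.71 ± 0.20. APX6 rose by 1.07 ± 0.17 on day 9, and APX5 fell by 1.60 ± 0.24 on day 12.

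**Figure D5:**
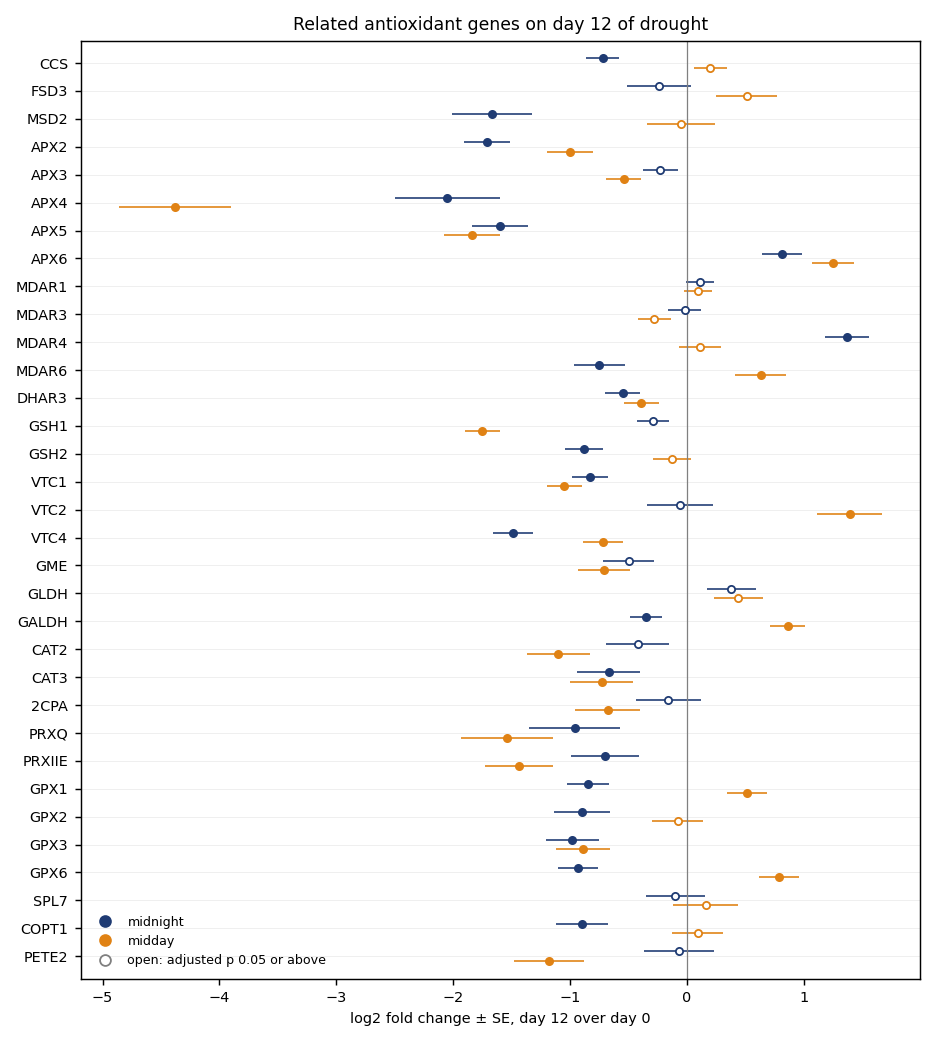
Log2 fold change ± SE on day 12 of drought over day 0 for the 33 related genes tested, with midnight (blue) above midday (orange) for each gene; open symbols did not pass an adjusted p under 0.05. Of the 33 genes, 2 rose and 19 fell at midnight, and 6 rose and 16 fell at midday; APX4 at midday lies lowest, at -4.38.

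At midday, APX4, a thylakoid lumen protein of the ascorbate peroxidase family, fell by 2.92 ± 0.44 on day 9 and fell by 4.38 ± 0.48 on day 12 (edgeR adjusted p = 1.05e-05 and 4.66e-08), to 73.9 and 26.7 CPM, against 558 CPM on day 0. GSH1, which catalyses the committed step of glutathione synthesis, fell by 1.05 ± 0.15 and by 1.75 ± 0.15 at midday (edgeR adjusted p = 1.68e-06 and 2.47e-10), and VTC1, of ascorbate synthesis, by 1.01 ± 0.15 and by 1.05 ± 0.15. GALDH, also of ascorbate synthesis, rose by 1.10 ± 0.15 on day 9, and APX5 fell by 1.84 ± 0.24 on day 12. The midnight response minus the midday response was called for 4 related genes with a positive and 8 with a negative sign on day 9, against 24.3% of all loci, and for 4 and 11 on day 12, against 33.8%. It was positive for GSH1 (0.85 ± 0.20 and 1.46 ± 0.20) and for the peroxisomal catalase CAT2 on day 9 (1.65 ± 0.38). It was negative for GALDH (-0.85 ± 0.20 and -1.21 ± 0.21), for MDAR6 on day 9 (-1.34 ± 0.31) and for the glutathione peroxidase-like genes GPX6 (-1.72 ± 0.24) and GPX1 (-1.36 ± 0.25) on day 12.

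In re-watered plants compared with day 12, 12 of the 33 related genes rose and 7 fell at midday, beside 47.7% of all loci called (22.9% higher and 24.8% lower). At midnight 12 rose and 4 fell, beside 42.9% (22.3% higher and 20.6% lower), so the number called was near that of all loci at midnight. At midday GSH1 rose by 1.38 ± 0.15 (edgeR adjusted p = 2.21e-08), APX5 rose by 1.63 ± 0.24 and APX6 fell by 1.51 ± 0.18. APX4 had 622, 360 and 87.7 CPM in re-watered plants, against 24.8, 31.6 and 23.7 CPM on day 12, with replicate 3 again the lowest of the re-watered group, and rose by 3.73 ± 0.47. At midnight APX2 rose by 1.30 ± 0.20 and APX5 by 1.31 ± 0.24, while the monodehydroascorbate reductases MDAR1 and MDAR3 fell by 0.74 ± 0.12 and by 0.90 ± 0.14 (edgeR adjusted p = 1.09e-05 and 1.3e-05).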

How the data were processed

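Polyadenylated leaf RNA was sequenced in single reads of 150 bp, 12 libraries per lane, per the labels' protocols; the lane of each library is not given there. Bases were called with CASAVA 1.8.2, per the submitters' processing notes. The authors matched reads in protein space with BLAT to a reduced set of Arabidopsis TAIR10 proteins, per the file headers. The deposited values tested here are raw read counts per locus. Beside them stands a deposited score, which the authors made by scaling the counts to the library total (RPM) and rounding; it lay within 1 of the scaled counts in 100% of cells. The authors also deposited log2 fold changes with q-values, in columns that also hold letters and therefore treated as a score, come from DESeq2 per the submitters' processing notes and are used only as the authors' values. For assembled contigs, the authors deposited the mean RPM of each group, with coding lengths. The 6 paired-end libraries were left out.

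Counts were tested with edgeR 4.0.16 (R 4.3.3): filterByExpr (14052 loci), TMM factors, a robust quasi-likelihood fit with 1 coefficient for each of 10 groups, 30 libraries and 20 residual degrees of freedom, and a biological coefficient of variation of 0.173. The TMM factors ranged from 0.718 to 1.334. Tests are two-sided, the standard error is the absolute log2 change over the square root of F, and p-values were adjusted within each comparison over all loci. An exact permutation test of 3 libraries against 3 cannot go below a p of 0.1, so the p-values rest on the model across loci. The script was tested on simulated data. Other settings tried were DESeq2 1.42.0, limma-trend (limma 3.58.1), scaling by RLE or by the upper quartile, no filter, 5 CPM in 3 libraries, an adjusted p under 0.01, the replicate number as a block, each library left out, and, chosen after seeing the data, omitting day 0 midnight replicate 3 and re-watered midday replicate 3, which correlated least with their groups. All 10 genes are named; of the related genes, up to 4 called ones with the smallest adjusted p per comparison; of similar loci, up to 2 per gene. The genes and lists were chosen with earlier results of these data known. No sequences were used.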

Additional observations from a re-analysis of the deposited data

Results flagged for a closer look

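The drought response differed between midnight and midday for 5 genes on day 9 and 6 on day 12, by the edgeR test of the difference itself (midnight response minus midday response, log2). On day 9 the difference was -1.78 for CSD1, -0.86 for CSD3, -1.30 for MSD1, -0.91 for APX1 and -1.23 for GR1. On day 12 it was -2.17 for CSD1, 1.26 for CSD2, -1.35 for CSD3, -1.99 for MSD1, -0.77 for APX1 and -1.48 for GR1. The sign was negative in all of these except CSD2 on day 12, whose call did not hold in 24 of the 30 fits that left out a library.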

How the results depend on the processing

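Of the log2 changes of single genes under the alternatives, 7013 kept their direction and side of the threshold, 178 lost a call and 126 gained one. Most of these alternatives left out a single library, usually from a group outside the comparison, which moves the estimate little. Much of this agreement was therefore built in, and the counts out of 30 fits given above include such fits. Another 93 changed sign without being called in either the main fit or the alternative. None changed sign with a call in either. At an adjusted p under 0.01 the number of the 10 genes called was 1 for day 9 against day 0 at midday (6 at 0.05), 0 for re-watered against day 0 and 0 for day 12 against day 9 at midday (1 each at 0.05), 3 for re-watered against day 0 at midnight (5 at 0.05) and 3 for the day 9 difference between midnight and midday responses (5 at 0.05). With limma-trend it was 3 for day 9 against day 0 and 2 for re-watered against day 0 at midday. With DESeq2 it was 2 for re-watered against day 0 and 2 for day 12 against day 9 at midday. Without day 0 midnight replicate 3 and re-watered midday replicate 3 it was 0 for re-watered against day 0 and 3 for day 12 against day 9 at midday, 4 for day 4 against day 0 and 7 for re-watered against day 12 at midnight. Related genes called in that fit were 0, 6 and 11 for re-watered against day 0 at midday, day 4 against day 0 at midnight and re-watered against day 0 at midnight (3, 0 and 7 in all libraries). For most of these settings, and for the fits below that left out each library, the share of all loci called is not given. These counts thus do not show whether the 10 genes lost or gained calls more often than other loci. The causes were not tested.

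Leaving out each library in turn gave, at midday, 0 to 0 genes called for day 4, 3 to 8 for day 9, 5 to 8 for day 12 and 0 to 4 for re-watered plants against day 0, 0 to 2 for day 12 against day 9 and 4 to 7 for re-watered against day 12. At midnight it gave 0 to 3, 6 to 8, 6 to 8 and 3 to 5 against day 0, 2 to 4 for day 12 against day 9 and 4 to 6 for re-watered against day 12. For midnight against midday it gave 5 to 7 on day 0, 4 to 7 on day 4, 8 to 8 on days 9 and 12 and 6 to 7 after re-watering, and for the difference of responses 4 to 6 on day 9 and 4 to 7 on day 12.

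The numbers of the replicates paired no libraries: of 135 same-numbered pairs, 20 had a residual correlation over 0.1 (mean 0.002, against -0.001 for other pairs; range -0.41 to 0.378), and 13 of 30 libraries correlated best with their own number. With the replicate number as a block, 3 genes were called on day 9 at midday, against 6 without it. CSD2, TAPX and GR2 were the calls that differed (edgeR adjusted p = 0.052, 0.0539 and 0.0566), and outside that comparison the block ended the calls of CSD2 in the day 12 difference (0.0635), CSD3 on day 12 against day 9 at midnight (0.0502), MSD1 between midnight and midday on day 4 (0.0522) and SAPX in re-watered plants against day 12 at midday (0.0588).

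Over all loci, DESeq2 called 235 and limma-trend 54 loci on day 4 at midnight, against 26 by edgeR, and 1131 were called without both libraries. For re-watered against day 0 at midday, where edgeR called 575 higher and 387 lower, DESeq2 gave 597 and 650 and upper quartile scaling 499 and 534; 224 loci were called without both libraries. Counts of 0 in the 10 genes did not occur in these libraries, and the depth limits only loci near 0.343 to 0.703 CPM.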

Other observations

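The ratio of normalised counts of CSD2 to FSD1 was chosen after its values were seen and is given without a test. CSD2 is a copper/zinc dismutase of chloroplasts, and FSD1 is an iron dismutase of plastids and cytosol that may share reads with FSD3. Per library the ratio was 0.252 to 0.437 at midday on day 9 and 0.447 to 0.449 on day 12, against 1.04 to 1.43 on day 0. At midnight it was 1.82 to 2.19 on day 9 and 2.79 to 2.81 on day 12, against 1.72 to 1.89 on day 0. In re-watered plants it was 1.22 to 1.54 at midnight and 0.553 to 0.791 at midday. The ratio of SAPX to TAPX, whose reads may be shared, stayed between 0.646 and 1.15 in the 30 libraries. The ratio of CSD1 to CSD2 ranged between 0.0896 and 2.27.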
